A study of Mus musculus with 4 samples.

Results

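Intergenic stretches of the mouse genome whose 5-hydroxymethylcytosine (5hmC) was called altered without LSH in embryonic fibroblasts and not in embryonic stem cells are described here. LSH, encoded by Hells, is a chromatin remodeler of the SNF2 family. The groups were mouse embryonic fibroblasts (MEFs) knocked out for LSH, wild-type MEFs, embryonic stem (ES) cells knocked out for LSH and wild-type ES cells, with 1 library each. MEFs were grown in serum medium, and ES cells in serum medium with LIF. How the knockouts were made, the age of the embryos, and the number of clones or embryos behind each culture are not stated by the labels. 5hmC-bearing fragments were tagged with an azide-carrying glucose, biotinylated, captured on streptavidin and sequenced. The authors' deposited tables are 1 list per cell type of 5 kb bins called differential between knockout and wild type. They give positions only, with no direction, level, fold or p-value, so a listed bin is called altered and never gained or lost. The read depth is unknown, and with no expression values the labelled cell types could not be checked against markers.

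The members were chosen by the authors' calls on the 2 lists and by position relative to genes. A member was a bin on chromosomes 1 to 19 or X that was on the MEF list, was not on the ES list, and overlapped no gene body and no 1 kb either side of a gene start. Genes were 26195 protein-coding, lincRNA and processed-transcript models of GENCODE M1 on mm9. In the authors' deposited table, 8972 MEF bins lay on these chromosomes, or 1.75% of the 511186 bins with determined sequence (1 listed bin had none). Of these, 8566 were absent from the ES list, and 3319 of them were intergenic, which are the members. The members were 38.7% of the MEF-only bins, with an exact 95% binomial interval of 37.7 to 39.8%. Promoter bins made up 8.64%, exon bins 20.8% and intron bins 31.8%. On the ES list, 2426 of the 8139 ES-only bins were intergenic, or 29.8% [28.8 to 30.8]. Over all 511186 bins with sequence, 281953 were intergenic, a larger share than among the MEF-only or the ES-only bins. Both sets were thus intergenic less often than bins in general. Shares of promoter, exon and intron bins over all bins are not given here. The members were 1.18% of the 281953 intergenic bins with sequence, and ES-only intergenic bins were 0.860%. These shares follow from the rule that chose the members and are descriptions. A further 132 intergenic bins were on both lists. Brackets hold exact 95% binomial intervals for shares and order-statistic intervals for medians. They cover counting over bins, which are not replicates and often touch each other, so the intervals are too narrow. No difference between sets of bins was tested, because each group has 1 library.

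5hmC is made from 5-methylcytosine by the TET enzymes and is a step in the removal of DNA methylation. It lies mostly at CpG dinucleotides, and outside genes it is known from distal regulatory elements such as enhancers. LSH is known for its part in DNA methylation of repeats and of developmental genes. MEFs are connective tissue cells that make collagen and elastic fibres, and ES cells are pluripotent cells of the early embryo.

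The sequences shown first are those of the 4 stretches that held the most members. Each is the 300 bases with the most CpG in its stretch, from the NCBIM37 assembly (mm9), plus strand, 5′ to 3′, with CpG in capitals. The first lies upstream of the elastin gene Eln at chr5:135261901-135262200 and holds 21 CpG. The second lies past the 3′ end of the metalloprotease gene Adamts20 at chr15:94051371-94051670 and holds 11. The third lies between Gata4 and Blk at chr14:63940681-63940980 and holds 8, and the fourth lies between Wnt7b and Ppara at chr15:85509541-85509840 and holds 15.
Eln: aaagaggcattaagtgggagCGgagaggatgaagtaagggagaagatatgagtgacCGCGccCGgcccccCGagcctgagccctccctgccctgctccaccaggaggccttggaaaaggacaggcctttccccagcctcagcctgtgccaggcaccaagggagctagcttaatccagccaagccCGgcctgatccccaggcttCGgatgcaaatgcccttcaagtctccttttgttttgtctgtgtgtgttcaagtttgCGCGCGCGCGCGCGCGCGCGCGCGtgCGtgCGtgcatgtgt
Adamts20: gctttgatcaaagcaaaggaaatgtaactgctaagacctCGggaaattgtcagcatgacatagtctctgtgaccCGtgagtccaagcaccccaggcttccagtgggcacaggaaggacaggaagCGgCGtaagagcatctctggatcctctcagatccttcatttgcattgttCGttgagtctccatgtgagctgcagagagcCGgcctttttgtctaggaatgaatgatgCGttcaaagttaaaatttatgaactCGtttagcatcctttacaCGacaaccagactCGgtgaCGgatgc
Gata4: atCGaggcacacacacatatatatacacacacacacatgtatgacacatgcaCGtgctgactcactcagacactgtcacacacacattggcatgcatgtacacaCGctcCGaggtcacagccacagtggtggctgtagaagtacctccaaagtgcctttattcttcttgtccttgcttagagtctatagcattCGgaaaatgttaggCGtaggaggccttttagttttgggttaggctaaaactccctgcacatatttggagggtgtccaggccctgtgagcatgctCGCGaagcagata
Ppara: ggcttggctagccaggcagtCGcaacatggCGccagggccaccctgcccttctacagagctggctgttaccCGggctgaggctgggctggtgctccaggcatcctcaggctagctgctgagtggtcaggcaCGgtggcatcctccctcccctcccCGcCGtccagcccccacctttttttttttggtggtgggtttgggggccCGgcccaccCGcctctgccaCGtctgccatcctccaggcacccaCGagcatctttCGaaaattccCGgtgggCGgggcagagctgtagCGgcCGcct

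For scale, 2 single members are shown the same way. The member of median CpG density, 70.9 kb downstream of the start of Gm13652, had 9.8 CpG per kb, and its richest 300 bases (chr2:74900201-74900500) hold 7 CpG. The member with the most CpG had 99.6 per kb, and its richest 300 bases (chr17:39981211-39981510) hold 45. It is labelled by its nearest gene start, that of Pgk2, which is 361 kb away.
Gm13652: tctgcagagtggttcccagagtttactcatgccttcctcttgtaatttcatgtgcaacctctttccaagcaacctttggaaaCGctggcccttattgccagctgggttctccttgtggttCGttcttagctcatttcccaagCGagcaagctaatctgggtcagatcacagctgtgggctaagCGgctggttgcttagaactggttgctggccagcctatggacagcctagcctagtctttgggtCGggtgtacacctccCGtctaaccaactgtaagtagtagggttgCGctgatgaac
Pgk2: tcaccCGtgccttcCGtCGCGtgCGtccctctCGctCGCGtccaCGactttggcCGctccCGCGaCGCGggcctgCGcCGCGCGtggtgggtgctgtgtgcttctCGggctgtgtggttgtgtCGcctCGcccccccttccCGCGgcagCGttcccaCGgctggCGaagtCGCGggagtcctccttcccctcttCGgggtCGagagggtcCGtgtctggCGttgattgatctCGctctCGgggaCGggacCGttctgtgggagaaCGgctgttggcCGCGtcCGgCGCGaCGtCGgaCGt

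The members ran in stretches. After joining members within 10 kb of each other, the 3319 members made 2701 stretches, of which 428 held 2 or more members. These 428 stretches held 31.5% of the members [29.9 to 33.1], against 15.4% of ES-only intergenic bins in such stretches [14 to 16.9]. Where only touching members were joined, 17.8% of members lay in such stretches [16.5 to 19.2]. Stretches of 4 or more members numbered 38 and held 178 members. Among the ES-only intergenic bins no stretch reached 4 bins (0 of 2426 bins, with an exact binomial upper bound of 0.152%). The largest member stretches held 7 members, or 11 when members within 20 kb were joined, and the largest ES-only ones held 3 bins.

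Members also lay close to other altered MEF bins of any class. The median gap from a member to the nearest other bin on the MEF list was 25 kb [25 to 30], while the median gap from an ES-only intergenic bin to the nearest other bin on the ES list was 45 kb [45 to 50]. A touching bin on the MEF list was found for 19.4% of members [18.1 to 20.8], against 2.37% of all intergenic bins. For ES-only intergenic bins, 8.49% touched another bin on the ES list [7.41 to 9.67]. The MEF-only intron bins resembled the members in this, with 23.4% touching another MEF bin [21.8 to 25]. Of the 645 members with a touching bin, 611 touched an intergenic bin, 26 a promoter bin and 15 an exon bin. This split follows in part from the class rule, by which a bin next to an intergenic bin cannot be an intron bin. The classes of touching bins were not counted for all intergenic bins. An ES-listed bin touched 5.36% of members [4.62 to 6.18], against 1.85% of all intergenic bins, and the median gap to one was 85 kb for members and 410 kb for all intergenic bins. Members thus touched ES-listed bins less often than MEF-listed ones, and lay nearer to ES-listed bins than intergenic bins in general.

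The elastin stretch had 7 members in the 8 bins from chr5:135230001-135270000. Eln encodes the core protein of elastic fibres. The members began 6.89 kb upstream of the gene's start and reached 41.9 kb, and no other gene start was nearer to any of them. Their CpG density was between 10 and 19.2 per kb, with a median of 13, and 3 of the 7 held a CpG island (at least 200 bases, over 50% GC, observed over expected CpG over 0.6). Of the 16 intergenic bins nearest to Eln, 7 were members and 0 were ES-only bins. A MEF-listed bin also covered the start of Eln itself, and the bin just beyond the stretch was on both lists.

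The Adamts20 stretch (chr15:94045001-94090000) had 7 members in 9 bins. Adamts20 is a secreted metalloprotease known in mice for the spread of pigment cell precursors through embryonic skin. The stretch lay beyond the gene's 3′ end, 10.6 kb from it and 206 to 246 kb from the start, with CpG densities of 7.6 to 10.8 per kb and no CpG island. The gene itself held 8 further MEF-listed bins and 1 ES-listed bin, so altered bins ran through and past the gene in MEFs.

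Between Gata4 and Blk (chr14:63935001-63990000), 7 of 11 bins were members and 1 more was on both lists. Gata4 is a transcription factor of heart and endoderm development, and Blk is a Src-family kinase of B cells. In the stretch, 4 members had Gata4 as their nearest start and lay 44.5 to 59.5 kb upstream of it, and the last member ended 1.67 kb from the Blk gene. Outside the stretch, 1 more member lay nearer, 24.5 kb upstream of Gata4. CpG densities were 6 to 14.4 per kb, and none of the 7 held a CpG island.

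Between Wnt7b and Ppara (chr15:85485001-85540000), 7 of 11 bins were members and none was on the ES list. Wnt7b is a WNT ligand, and Ppara is a nuclear receptor that controls fatty acid oxidation. The first member had the start of Wnt7b as its nearest and lay 72.8 kb upstream of it, and the other 6 lay 25.4 to 65.4 kb upstream of Ppara. On the Wnt7b side the nearest gene body was that of the lincRNA AU022754, 60.9 kb from the stretch. CpG densities were 11.2 to 19.2 per kb. The last of the 7 bins holds 2 microRNA genes, Mirlet7c-2 (chr15:85537033-85537127) and Mirlet7b (chr15:85537749-85537833), both on the plus strand.

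Let-7 microRNAs are abundant in differentiated cells and are held back by the Lin28 proteins in pluripotent ones. Their mature sequences are given from RefSeq (table of build GRCm38.p6), with the seed, bases 2 to 8, in capitals. The 5p arms of the 2 genes share 1 seed, and so do the 3p arms.
mmu-let-7c-5p: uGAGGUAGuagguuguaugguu
mmu-let-7b-5p: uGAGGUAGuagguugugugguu
mmu-let-7c-2-3p: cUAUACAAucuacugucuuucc
mmu-let-7b-3p: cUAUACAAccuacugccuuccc

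A further microRNA gene with a RefSeq entry, Mir34a (chr4:149442563-149442664, plus strand), lay inside another member. It is known as a target of p53 that restrains the cell cycle, and its arms have seeds other than those of let-7.
mmu-miR-34a-5p: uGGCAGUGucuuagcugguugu
mmu-miR-34a-3p: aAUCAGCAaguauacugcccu

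The annotation placed 9 microRNA genes in 7 members, and 3 of the 9 had a sequence entry. The other 6 carry clone-based names only: AL845460.1 on chromosome 2, AC149058.1 on 7, AC161253.1 and AC161253.2 on 12, AC110817.1 on 13 and AC124394.1 on 19. The share of members with a microRNA gene was 0.211% [0.0848 to 0.434], against 0.618% of ES-only intergenic bins [0.346 to 1.02] and 0.195% of all intergenic bins. The let-7 and miR-34a bins are therefore named as single loci, and members as a set held microRNA genes at a share near the background.

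There were 13 stretches with 5 or 6 members. The stretch past Cdc7, a kinase that starts DNA replication, held 6 members, from 51.7 to 86.7 kb downstream of the gene's start. The gene on its other side was Tgfbr3, a co-receptor for TGF-beta, whose edge lay 50.6 kb away. Upstream of Sash1, which encodes a scaffold protein with SAM and SH3 domains, all 5 bins from chr10:8670001-8695000 were members, 64.1 kb or more from the start. A stretch of 5 had as nearest starts those of Lhx8, a LIM homeobox factor, and Cryz, an oxidoreductase. The nearest gene bodies on its sides were those of Lhx8 and Tyw3, 106 and 109 kb away. Another 5 lay between Osmr and Lifr, which encode receptor subunits for oncostatin M and for LIF, 101 to 125 kb upstream of the nearer start. The stretch at Pim1, a serine-threonine kinase, had 5 members, 4 of them nearest to Pim1 (37.8 to 57.8 kb upstream) and 1 to Fgd2, a guanine nucleotide exchange factor. A stretch of 5 members lay 121 to 146 kb upstream of Vldlr, the very-low-density lipoprotein receptor, with low CpG densities of 5.2 to 7.8 per kb. Within 50 kb of the Sash1, Lhx8, Osmr and Vldlr stretches no bin was on the ES list. The 7 other stretches of 5 members, equal in members but less dense, lay nearest to Fgf9, Rpap3, C130026L21Rik, Gas6, Barx2, Serp2 and Hoxb1.

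**Figure D1:**
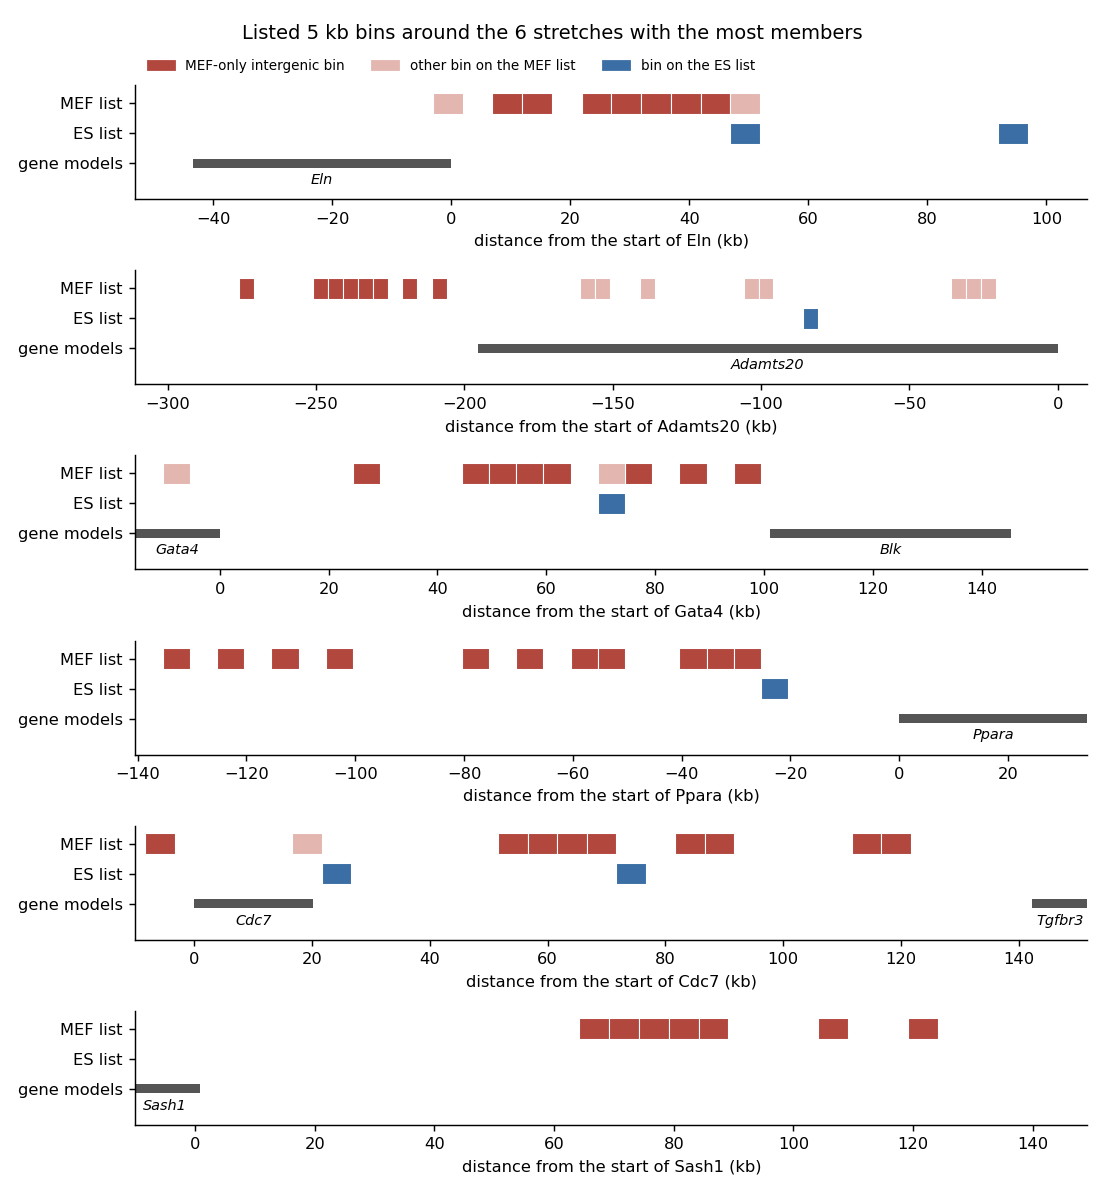
Listed 5 kb bins around the 6 stretches with the most members, drawn as boxes in kb from the start of the named gene. Dark red boxes are members, pale red boxes are other bins on the MEF list, blue boxes are bins on the ES list and grey bars are gene models. The members upstream of Eln run from 6.89 to 41.9 kb, and the members at Adamts20 lie past the end of a gene that holds 8 further MEF-listed bins.

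Counted by nearest gene start, members were spread over 2023 genes, or 12.2% of the 16545 genes that are nearest to any intergenic bin with sequence. The 2426 ES-only intergenic bins were spread over 1887 genes, or 11.4%. Genes with 5 or more members numbered 72, against 14 with 5 or more ES-only bins, and 6 genes had 10 or more members, against 0. Some of the genes with most members border wide gene-poor regions. Cited2, a transcriptional co-regulator, had 11 members among 302 intergenic bins (3.64%), all upstream and 158 to 798 kb away, in 9 stretches. Kirrel3, a cell adhesion molecule, had 10 of 184 (5.43%), and Pkdcc, a secreted protein kinase of skeletal development, had 9 of 161 (5.59%).

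The genes named here were picked for having the most members, so those with fewer intergenic bins have the higher shares by that choice. The intervals take no account of it. Cdc7 had 9 members among 27 bins (33.3% [16.5 to 54]) and Osmr had 8 of 25 (32% [14.9 to 53.5]). C130026L21Rik, a model next to Mn1, had 8 of 29 (27.6%) and Vldlr had 8 of 35 (22.9%). Adamts20 had 10 of 55 (18.2%) and Rpap3, an RNA polymerase II assembly factor, had 8 of 40 (20%). For Osmr, C130026L21Rik, Vldlr and Adamts20 the count of ES-only intergenic bins was 0, and for Cdc7 and Rpap3 it was 2 each. Among models without an assigned function, 1500009L16Rik and Gm10398 had 11 members each, among 69 and 74 bins. Rpl13-ps3 had 11 among 106, and Gm17203, Gm17716 and Gm815 had 9 each, among 43, 50 and 52 bins. Of these 15 genes, 3 lay on chromosome 15, 3 on chromosome 14 and 3 on chromosome 19.

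Members near genes of the extracellular matrix and of its signals were described with gene lists, by the share of the intergenic bins nearest to a list's genes that were members. A gene may stand on several lists. Over all genes that share was 1.18%, and the median member lay 48.5 kb from a gene start. The lists' bins were not matched in CpG density. Their median ran from 4.8 CpG per kb (olfactory and vomeronasal) to 10.2 (AP-1, TEAD and RUNX), against 6 over all genes. It was 9.3 for elastic fibre, 8.8 for actin, 8.4 for WNT, 8 for TGF-beta and 6.2 for collagen genes. Of all intergenic bins with 8.2 to 9.6 CpG per kb, 2% were members, and with 9.6 to 12.2, 3.12%. The part of CpG density was not tested. For 23 elastic fibre genes the share of members was 11.2%, with 15 members among 134 bins [6.4 to 17.8], against 2.99% for ES-only bins [0.819 to 7.47]. Eln supplied 7 of the 15, and without Eln the share was 6.78% [2.97 to 12.9]. The others lay at Ltbp1 (3), Ltbp2 (2), Fbln5, Lox and Efemp1 (1 each), all of them upstream. Ltbp1 binds latent TGF-beta, Ltbp2 is a microfibril protein, Fbln5 is needed to assemble elastic fibres, and Lox crosslinks elastin and collagen. The median member of the elastic fibre list lay 21.9 kb from the gene start.

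Fibroblast and mesenchymal genes had 33 members among 938 bins, or 3.52% [2.43 to 4.91], against 1.6% for ES-only bins [0.898 to 2.62]. They were spread over 18 of the 40 genes, and their median distance was 43.9 kb. Tcf21, a transcription factor of mesenchyme, had 5 members, and Sparc, a matrix glycoprotein, had 3 among only 7 bins. Col6a1 and Col5a1, which encode chains of type VI and type V collagen, had 3 each. Over all 44 collagen genes the share was 2.87% [1.61 to 4.69], with 15 members at 9 genes, against 0.765% for ES-only bins [0.209 to 1.95]. Type VI collagen genes held 7 of these 15: Col6a1 3, Col6a6 2, Col6a2 1 and Col6a3 1. Actin and smooth muscle genes had 8 members among 117 bins (6.84% [3 to 13]), against 3.42% for ES-only bins [0.939 to 8.52]. Of the 8 members, Cnn3, an actin-binding calponin, held 4 and Tpm1, a tropomyosin, held 3. Without Cnn3 that share was 3.81% [1.05 to 9.47], and 25 of the 28 genes of that list had no member.

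WNT pathway genes had 42 members at 21 of 66 genes, or 4.86% of 864 bins [3.53 to 6.51], against 2.2% for ES-only bins [1.33 to 3.41]. Among the ligands, Wnt7b had 5 members, Wnt8b 2, and Wnt5b, Wnt2b and Wnt11 1 each. Among the receptors, Fzd7 had 5 members, all upstream and 24 to 94 kb away, Fzd1 had 3, Fzd4 had 2 and Ryk had 1. The secreted regulators included Sfrp1, a decoy that binds WNT proteins, with 4 members 53 to 93 kb downstream, and the R-spondins Rspo3 and Rspo2 with 3 and 2. The Dickkopf inhibitors Dkk1, Dkk2 and Dkk3 had 2, 1 and 1. The nuclear partners Tcf7l2 and Lef1 had 2 each, and Axin2, Apc, Nkd1 and the beta-catenin gene Ctnnb1 had 1 each. These are all genes of the WNT list with a member, and for 14 of the 21 no ES-only intergenic bin was nearest.

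Genes of TGF-beta and BMP signalling had 39 members at 21 of 63 genes, among 1004 bins, or 3.88% [2.78 to 5.27], against 1.39% for ES-only bins [0.764 to 2.33]. The signal-transducing Smad genes Smad5, Smad3 and the inhibitory Smad6 had 3 each, and the ligand genes Bmp7 and Inhbb had 3 each. Growth factor ligands and receptors had 29 members among 761 bins (3.81% [2.57 to 5.43]), against 1.45% for ES-only bins [0.724 to 2.57]. Fgf9 held 7 of these, 191 to 356 kb downstream, while Gas6, the ligand of the TAM receptors, had 3 within 25.5 kb upstream, and Igf1 and Vegfa had 3 each. Developmental transcription factors outside the Hox clusters had 75 members among 3887 bins, or 1.93% [1.52 to 2.41], near the 1.6% of ES-only bins [1.23 to 2.04]. Zfhx3 had 8 of them, Lhx8 7, and Gata4, Tbx20 and Tcf21 5 each.

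The list that went the other way was that of pluripotency genes. Its members were 6 among 564 bins, or 1.06% [0.391 to 2.3], close to the 1.18% of all intergenic bins, whereas ES-only intergenic bins were 26, or 4.61% [3.03 to 6.68]. The bins nearest to these genes were richer in CpG, with a median of 9.2 per kb against 6 over all genes. The 6 members lay at Klf5 (3), Fbxo15, Tcfcp2l1 and Otx2 (1 each), and Klf5 and Otx2 also had 5 and 4 ES-only bins. Without Klf5 the share of members was 0.633% [0.131 to 1.84], and with models of every type it was 0.413%. The clustered Hox genes had 4 members among 29 bins (13.8% [3.89 to 31.7]), all at Hoxb1, and none at the other 40 Hox genes, against 3.45% for ES-only bins [0.0873 to 17.8]. This share of members was 4.55% with models of every type, 8% without bins of over 20% repeated words and 22.2% without chromosomes 15 and 19. AP-1, TEAD and RUNX factor genes had 8 members and 8 ES-only bins among 246. Genes of DNA methylation and LSH partners had 4 members among 322 bins, at Cdca7 and Tet2, and 1.24% is near the background (0.676% without Cdca7, 0% with models of every type, 1.88% with protein-coding models only and 1.93% without repeat-rich bins). Olfactory and vomeronasal receptor genes, which lie in large clusters, had 11 members among 7419 bins, or 0.148%.

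**Figure D2:**
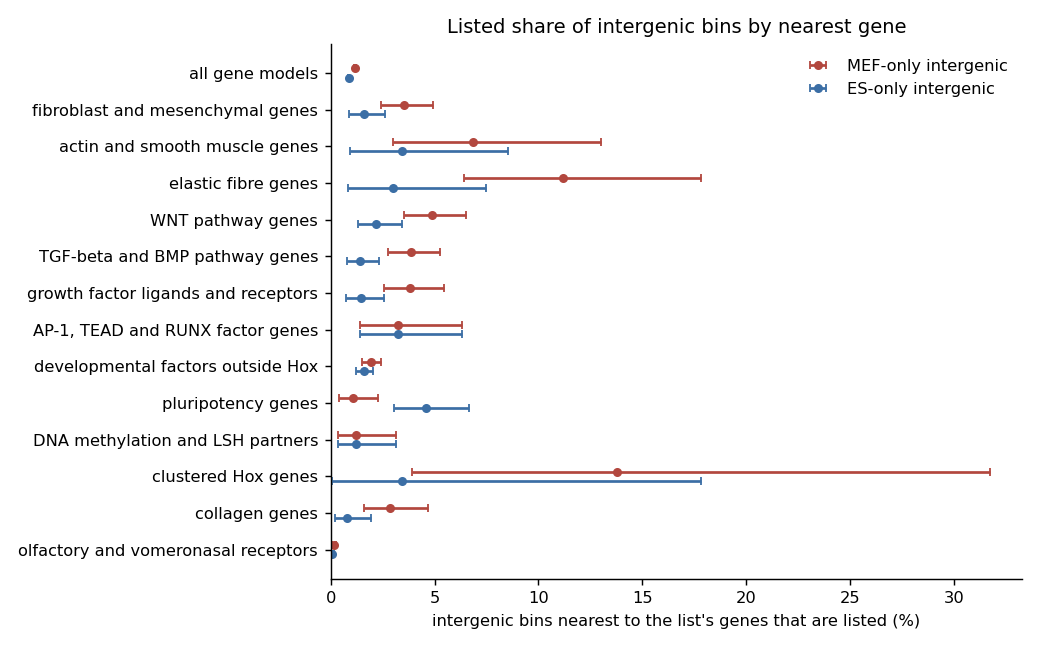
Share of the intergenic bins nearest to the genes of each list that are members (red) or ES-only intergenic bins (blue), in percent, with exact 95% binomial intervals. Members exceed 3% for the clustered Hox (13.8%, all at Hoxb1), elastic fibre (11.2%), actin (6.84%), WNT (4.86%) and TGF-beta and BMP (3.88%) lists. They also do for the growth factor (3.81%), fibroblast (3.52%) and AP-1, TEAD and RUNX (3.25%) lists, the last with an equal ES-only share. Members are near the 1.18% of all genes for the pluripotency list, where ES-only bins reach 4.61%. The lists' bins differ in CpG density.

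By distance to genes the members lay between the other two sets. The median member lay 48.5 kb from the nearest gene start [46 to 51.7], the median ES-only intergenic bin 31.8 kb [29.9 to 34.1], and the median intergenic bin 104 kb. To the nearest edge of a gene body the medians were 34.7 kb, 21 kb and 78.4 kb. A start within 50 kb was found for 50.7% of members [49 to 52.4], 63.2% of ES-only bins [61.3 to 65.2] and 34.5% of all intergenic bins. Within 500 kb a member had a median of 7 protein-coding starts, an ES-only bin 9 and any intergenic bin 4. The bin lay on the upstream side of its nearest gene start for 65.1% of members, 65% of ES-only bins and 60.6% of all intergenic bins. The nearest gene was protein-coding for 83.6% of members and 85.5% of all intergenic bins.

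By distance, members made up 1.6% of the intergenic bins under 10 kb from a start, 1.78% from 10 to 50 kb, 1.55% from 50 to 100 kb, 1.24% from 100 to 200 kb, 0.606% from 200 to 500 kb and 0.187% beyond. ES-only bins began at 1.66% under 10 kb, level with the members, and had 1.55% from 10 to 50 kb, 0.947% from 50 to 100 kb and 0.665% from 100 to 200 kb. Members and ES-only bins had like shares under 10 kb, and from 10 kb outward the share of members was the larger. Intergenic bins were also divided by CpG density into 10 groups of equal size, from group 1 with the fewest to group 10 with the most. The order of median distances was the same in groups 4 to 10. In group 10 the medians were 34.5 kb for members, 29.2 kb for ES-only bins and 43.2 kb for all. In group 7 they were 53.1, 34.1 and 76.4 kb. In groups 1 to 3, which held 4, 8 and 18 ES-only bins, members lay nearest to genes, as with 115 kb for members, 138 kb for ES-only bins and 189 kb for all in group 3.

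**Figure D3:**
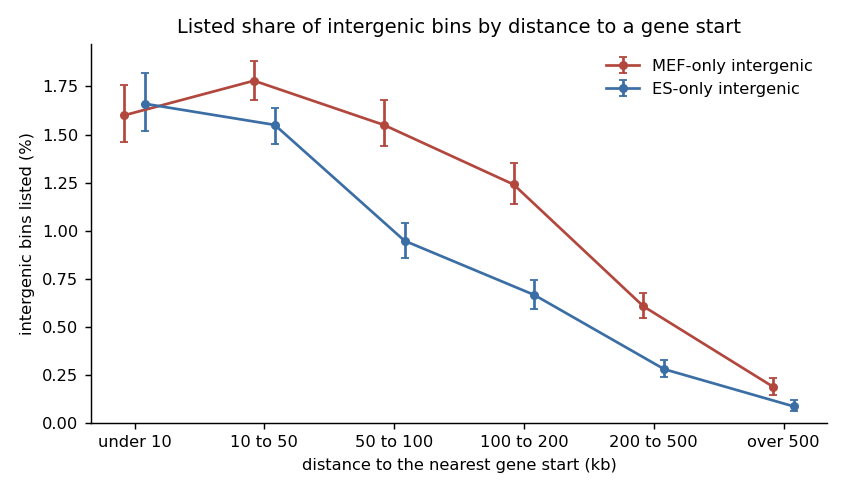
Share of intergenic bins that are members (red) or ES-only intergenic bins (blue), in percent, by distance from the bin to the nearest gene start in kb, with exact 95% binomial intervals. The shares are 1.6% and 1.66% under 10 kb and 1.55% and 0.947% at 50 to 100 kb.

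The 5 members farthest from any gene start lay 1343 to 1882 kb from it. Their nearest starts were those of Pik3c3 (1882 kb), A730099G02Rik (1795 kb), Nudt12 (1682 kb), Cdh6 (1407 kb) and Celf4 (1343 kb). All 5 were poor in CpG, with 3.2 to 4 per kb. At the other end, the rule placed its limit at 1 kb from a gene start. The members just outside it lay 1025 bases from Hist1h2ba, 1106 from Gm13157, 1107 from Sh3rf3 and 1118 from Ptprv. The bins just inside, which are not members, lay 984 bases from Usp15, 972 from Bhlha9, 970 from Aebp2 and 919 from Klrb1f. In all, 53 MEF-only bins were kept out by this window alone.

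Members were richer in CpG than intergenic DNA in general and poorer than the ES-only bins. The median was 9.8 CpG per kb for members [9.8 to 10], 11.6 for ES-only intergenic bins [11.4 to 11.8] and 6 for all intergenic bins. MEF-only intron bins had 10.6. GC content followed, with medians of 44.5%, 45.8% and 40.2%. Bins with under 5 CpG per kb were 7.2% of members [6.35 to 8.14], 1.73% of ES-only bins [1.25 to 2.33] and 35.6% of all intergenic bins. The part of CpG density in whether a bin was listed was not tested.

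Across these groups of CpG density the share of members was 0.106% in group 1, 0.525% in group 5, 2% in group 8, 3.12% in group 9 and 3.07% in group 10. It levelled off at the top. The share of ES-only bins was 0.0142%, 0.149%, 1.31%, 2.37% and 3.78% in the same groups, still climbing at the top. Members outnumbered ES-only bins in groups 1 to 9, and in group 10 they numbered 865 and 1065. By the CpG island definition given above, 32.6% of members held an island [31 to 34.3], against 48.7% of ES-only bins [46.7 to 50.7] and 19% of all intergenic bins. With a stricter definition (at least 500 bases, over 55% GC, observed over expected over 0.65) the shares were 1.12% [0.786 to 1.53], 3.01% [2.37 to 3.77] and 1.48%, so members no longer stood above intergenic DNA in general.

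**Figure D4:**
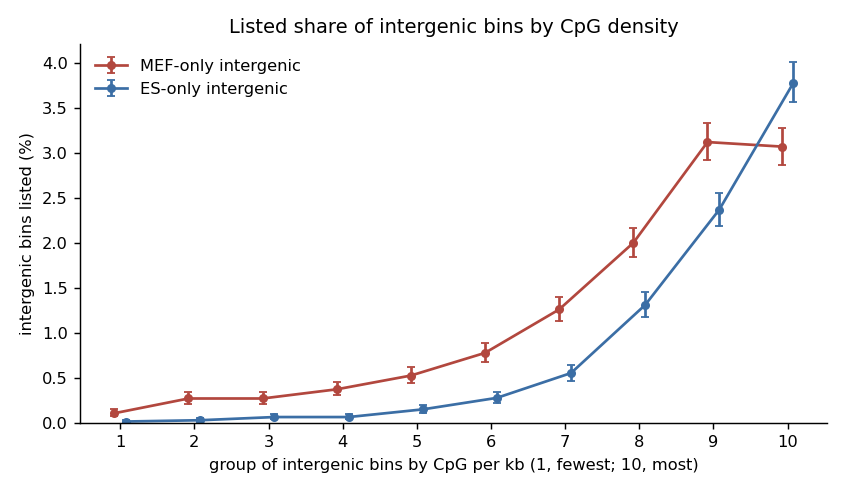
Share of intergenic bins that are members (red) or ES-only intergenic bins (blue), in percent, in 10 equal groups by CpG density, from fewest to most, with exact 95% binomial intervals. Members reach 3.12% in group 9 and 3.07% in group 10, while ES-only bins go on to 3.78%.

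The 6 members with the most CpG stood well above the median of 9.8 per kb. The bin with 99.6 per kb lay 361 kb from the start of Pgk2, and the next bin along, also a member, holds the pseudogene model AY036118. The second, with 49 CpG per kb, lay 26.8 kb from the start of Il17ra and holds Cecr6, which the annotation types as a pseudogene. The others lay near Ankrd33 (44.4 per kb), Cct8l1 (31), Plce1 (31) and Zfp423 (30.2), the last only 1.51 kb upstream of this zinc finger gene. The 3 members with the fewest CpG lay near Vmn1r224 (1.2 per kb), Inhba (1.8) and Vegfc (1.8).

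Repeated DNA was scarce in the members. Measured as the median share of 32-base words with a second copy elsewhere in the genome, it was 5.56% in members, 6.74% in ES-only bins and 12.8% in all intergenic bins. Bins with over 20% such words were 11.2% of members [10.2 to 12.4], 12.5% of ES-only bins and 35.9% of all intergenic bins. The member with the most CpG, 361 kb from Pgk2, had 17% such words. Copies absent from the assembly are not counted by this measure, so a bin can hold more repeated DNA than it shows. Reads from repeated words cannot be placed uniquely, and how such reads were treated is not stated by the labels, so the part of mapping in this difference was not tested.

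Genes of types outside the rule, pseudogenes and small RNAs, overlapped 69 members, or 2.08% [1.62 to 2.62], against 3.34% of ES-only bins [2.66 to 4.13] and 2.72% of all intergenic bins. Pseudogenes were in 33 of these members, snRNA genes in 12 and snoRNA genes in 5. The pseudogene model Gm15710 alone covered 4 members of 1 stretch near Parm1 and Rchy1. In 3 members near Dad1 lay models that the annotation types as immunoglobulin J genes, and no ES-only intergenic bin held one. Whether that type is right for this locus was not checked.

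Short motifs of transcription factors of fibroblasts and ES cells were counted in the 5 kb bins on both strands. The AP-1 motif TGANTCA was in 81.8% of members [80.4 to 83.1], 80.3% of ES-only bins [78.7 to 81.9] and 78.2% of all intergenic bins. The TEAD motif CATTCC, at 94.5%, 94.5% and 94.1%, and the RUNX motif TGTGGT, at 98.4%, 98.4% and 97.2%, were in nearly every bin of this size. The E-box CAGCTG was in 89.2% of members, 91.4% of ES-only bins and 76.1% of all intergenic bins, and the octamer ATTTGCAT in 26.9%, 27.8% and 39.9%. In CpG group 10 the E-box was in 91.2%, 93.1% and 88.7%, and the octamer in 23.5%, 27.6% and 24.8%. In group 9 the octamer was in 24.2%, 25.1% and 28.8%. In group 7 the E-box was in 87.6%, 89.1% and 75.3%, and the octamer in 27.3%, 26.3% and 40.5%. The AP-1 motif was in 86.5%, 83.3% and 76.2% in group 5 and in 82.3%, 77.6% and 78.7% in group 7. In group 10 the AP-1 motif was in 78.8%, 78.3% and 79.2%. The part of CpG density in these motif shares was not tested. The core motif of the insulator protein CTCF was in 2.44% of members [1.94 to 3.03], 4.86% of ES-only bins [4.04 to 5.8] and 1.94% of all intergenic bins. Among bins of CpG group 9 the CTCF motif was in 2.16%, 4.79% and 3.78%, and in group 10 in 4.62%, 6.95% and 4.8%. A match is a string of letters and not a bound site.

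The share of members ranged over chromosomes between 0.129% and 3.15%. Chromosome 19 had the largest share, with 168 members among 5339 intergenic bins (3.15% [2.69 to 3.65]), against 1.18% for ES-only bins [0.908 to 1.51]. Chromosome 15 followed with 274 members (2.39% [2.12 to 2.69]), against 0.812% for ES-only bins [0.656 to 0.994]. On chromosome 14 the shares were 1.54% and 0.7%. On chromosomes 1, 4, 7, 12 and 13 the share of members was not above that of ES-only bins, as with 0.721% and 0.779% on chromosome 1. Some other chromosomes also had like shares, such as 1.64% and 1.58% on chromosome 11 and 0.9% and 0.842% on chromosome 18. The X chromosome had 28 members (0.129%) and 6 ES-only bins (0.0277%). The median intergenic bin had 7 CpG per kb on chromosome 19, 6 on chromosome 15 and 4.6 on X, against 6 over all chromosomes, and the part of CpG density or of chromosome copy number in these shares was not tested.

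**Figure D5:**
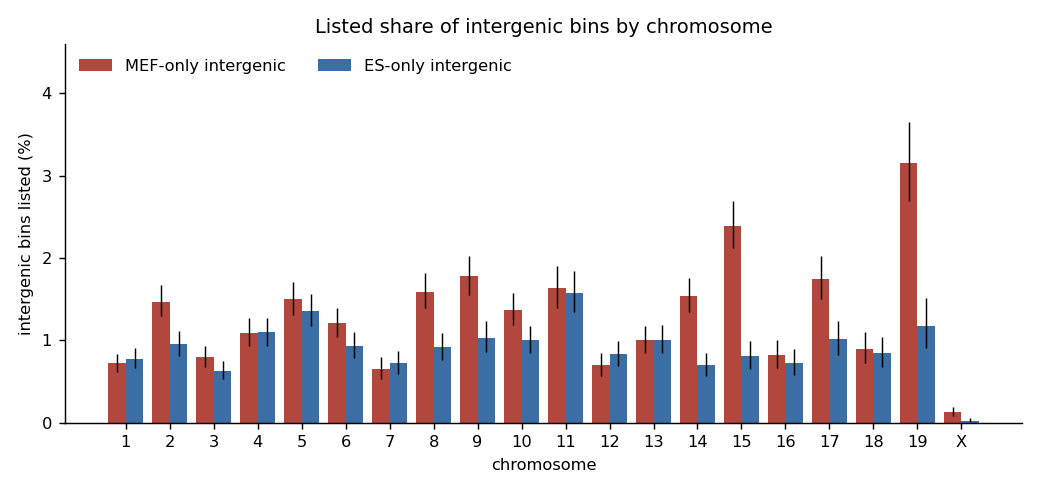
Share of each chromosome's intergenic bins that are members (red) or ES-only intergenic bins (blue), in percent, with exact 95% binomial intervals. Chromosomes 19 (3.15%) and 15 (2.39%) have the largest shares of members, and their ES-only shares are 1.18% and 0.812%.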

How the data were processed

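5hmC capture libraries of LSH knockout and wild-type MEFs and ES cells, 1 each, were compared by the authors on mm9, per the labels' protocols. BWA and SAMtools 1.3.1 are named in the submitters' processing notes without their role. Not given in the sources used here are the caller, its threshold, any input library and the handling of repeated reads. The deposited lists hold positions and running bin numbers of called 5 kb bins and no measured values. All 8972 MEF and 8545 ES bin numbers on chromosomes 1 to 19 and X equalled the numbering of NCBIM37, and 0 columns of values were left unmapped.

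Bins were classed and measured on NCBIM37 with GENCODE M1, with all gene-list symbols matched by name or RefSeq synonym (GRCm38.p6, names only). Sequence measures leave out bins in which over 50% of bases are undetermined. Repeated words were a sample of 1 in 64. Distances run from the bin's edge to the nearest gene start. Members were joined into stretches within 10 kb. Steps were tested on simulated data. No test was run on the bins. Genes named are those at the 10 leading stretches, the 15 genes with most members, the extremes of distance and CpG, and those with most members in each list. Further genes of the lists were added after their values were seen. Members and lists were chosen with earlier results of these data known. Software was matplotlib 3.10.9, scipy 1.17.1, numba 0.67.0, pandas 2.3.3, numpy 2.4.6 and Python 3.11.15.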

Additional observations from a re-analysis of the deposited data

Results flagged for a closer look

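Bins outside chromosomes 1 to 19 and X were not used above. In the authors' deposited table, 20 MEF bins lay on the unplaced sequence Un_random, and 18 of them were absent from the ES list. The ES list held 4 bins there, of which 2 were absent from the MEF list. These bins are given because they are a signal in data that the comparisons above do not use, and they could not be classed as intergenic, since no gene models were used for that sequence.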

How the results depend on the processing

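Each result was recomputed under other gene models, windows, bin filters and stretch rules. The alternatives of leaving out chromosomes 15 and 19 and leaving out each list's leading gene were chosen after seeing the data. The intergenic share of MEF-only bins was 41.9% with protein-coding models only, 37.7% with models of every type, 42.3% by bin midpoint, 36.4% with 5 kb either side of a start and 37.3% without bins of over 20% repeated words. In the same order, without the repeat filter, the median start distance was 57.4, 37.8, 43.3 and 53.8 kb, and the share within 50 kb was 46.4%, 59%, 54.3% and 47.5%. From the gene body edge they were 34.7 kb and 60.5%. The stretch with most members had 11 when joining within 20 kb and 5 when joining only touching bins. The island share was 34.7% by midpoint and 1.12% under the long definition. Members were 1.23% of intergenic bins with protein-coding models, 1.11% without bins touching an ES bin, 1.63% without repeat-rich bins and 1.08% without chromosomes 15 and 19. The other 71 recomputed values of these results and of the member count, CpG density and touching share stayed within the main interval or within 1.5 times a count. Of the values for lists, chromosomes, stretches and CTCF, 176 stayed and 7 moved. The recomputation began from 3.64% for the AP-1, TEAD and RUNX list and 1.91% for the developmental list. The main shares of these lists were 3.25% and 1.93%, so for them staying or moving does not refer to the main shares. Members in stretches were 40.2% when joining within 20 kb and 17.8% when joining touching bins. Without repeat-rich bins, chromosomes 15 and 19 had 3.04% and 3.82%. With models of every type, the TGF-beta list had 5.72% and the DNA methylation list 0%, and the Hox list without Hoxb1 had 0%. No paired analysis was possible because each group has 1 library and the lists hold no value per library. With depth and levels unknown, neither a direction of change nor the amount of 5hmC behind any bin can be given, and an ES bin that did not change cannot be told apart from one too shallow to call.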

Other observations

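Some further genes with 6 or 7 members are given singly. Thbs2, a matricellular thrombospondin, was nearest to 7 members among 36 intergenic bins (19.4% [8.19 to 36]) and to 0 ES-only bins. Adamts15, a second metalloprotease of the Adamts20 family, had 7 among 46 (15.2% [6.34 to 28.9]) and 1 ES-only bin. Cadm1, a cell adhesion molecule, had 7 members among 135 bins (5.19%), 123 to 298 kb upstream, and 0 ES-only intergenic bins, with 10 further MEF-listed bins inside the gene and 2 ES-listed ones. Slc1a3, a glutamate transporter, had 6 members among 35 bins, 1 ES-only intergenic bin and 8 MEF-listed bins inside the gene, against 0 ES-listed ones. These genes were chosen after their values were seen, and none of these counts was tested.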
